A study of Rattus norvegicus with 18 samples.

Results

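The genes described here belong to families known for writing, erasing or reading methyl groups on histones, though some members act elsewhere. They were taken from the 9 deposited lists of m6A peaks by their symbols. A gene was a member when its name began with Kmt, Kdm, Setd, Prdm, Ehmt, Nsd, Ezh, Suv39h, Jmjd, Asxl or Phf followed by a digit, or was Zmynd8. Peaks of different libraries that overlapped by at least 1 base were joined into 1 site. The members held 114 of the 9022 sites and 50 of the 4846 genes with a peak. Symbols, not measured values, decided membership.

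The cells were H9c2, a line from embryonic rat heart. The SYD group received 50 μM phenylephrine (PE) and the Shen-Yuan-Dan (SYD) preparation for 24 h, the Model group 50 μM PE for 24 h, and the Control group nothing. The sample labels give 2 mg/mL for SYD, the dose that the study's methods call high, while the series description gives 1 mg/mL. Each group had 3 replicates with an immunoprecipitated and an input library, 18 sequenced samples in all, and each replicate led to 1 deposited list of peaks on mRNA. PE stimulates α1-adrenergic receptors and is used to enlarge heart muscle cells. All replicates came from 1 cell line, and nothing in the labels says that they were separate cultures, so the p-values below measure only the spread between these libraries, which may be technical.

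m6A is a methyl group on adenosine in mRNA, placed by a complex around METTL3, and it acts on the splicing, stability and translation of the transcripts that carry it. Histone methylases add methyl groups to lysines of histone tails, demethylases remove them, and proteins with PHD fingers or related domains bind the methylated tails. Methylation of H3K4 marks promoters and enhancers, that of H3K36 marks transcribed gene bodies, and that of H3K9, H3K27 and H4K20 goes with compact chromatin. In the heart these enzymes take part in development and in the gene programs of growing muscle cells.

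The 9 lists held 32961 peaks, with 2508 to 2786 per SYD library, 2883 to 4476 per Model library and 3629 to 5556 per Control library. The fold enrichment of a peak is the authors' ratio of its reads in the immunoprecipitate over those in the input, and the score is the negative log10 p of the peak times 10. The median fold of a list was 21.4 to 30.9 in SYD, 9.71 to 11.3 in Model and 7.28 to 10.4 in Control libraries. The lowest fold on a list was 7.91 to 10.5 in SYD, 4.01 to 4.21 in Model and 2.72 to 3.73 in Control libraries. SYD lists were thus shorter and began at higher folds, and the part of this in the results below was not tested. Of 14 cardiac muscle markers 4 had a peak (Tnnt2, Gata4, Nkx2-5 and Mef2c), and of 23 markers of skeletal myoblasts, fibroblasts, endothelium and immune cells 0 had one. The lists hold neither read counts nor RNA levels, so the depth is unknown, and fewer cells, less RNA per cell and less m6A on that RNA cannot be told apart where a peak is missing.

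Fewer of these genes carried a peak in SYD libraries than in the others. In SYD libraries 13, 12 and 18 members had a peak (14.3 ± 3.21, SD, n = 3), in Model libraries 35, 24 and 26 (28.3 ± 5.86, SD, n = 3) and in Control libraries 42, 27 and 31 (33.3 ± 7.77, SD, n = 3). The number of their sites was 19, 19 and 26 in SYD libraries, 54, 40 and 43 in Model libraries and 71, 43 and 51 in Control libraries. Every SYD library lay below every Model and Control library on both measures, while Model and Control libraries overlapped. Shorter lists hold fewer sites of any genes, so the share of all sites was also taken. Member sites made up 0.758%, 0.706% and 0.934% of the sites of the SYD libraries, 1.21%, 1.39% and 1.03% of those of the Model libraries and 1.28%, 1.19% and 1.20% of those of the Control libraries. SYD libraries again lay below all others. With each list reduced to its 2508 peaks with the highest scores, the genes with a peak numbered 13, 12 and 15 in SYD, 23, 21 and 20 in Model and 23, 17 and 15 in Control libraries. At equal length SYD lay below Model in every library, while the third SYD library and the third Control library both had 15. These counts are a description and carry no test.

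**Figure D1:**
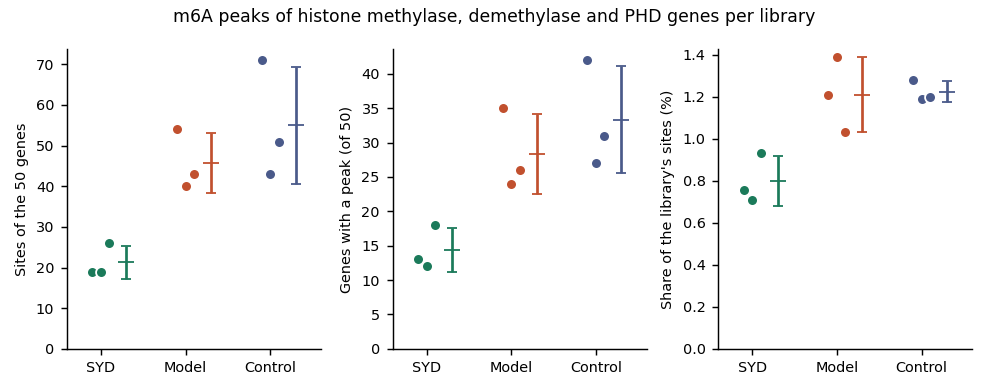
Each point is 1 library. The panels give the number of member sites, the number of member genes with a peak and the member sites as a percent of all sites of the library, with the mean and SD of each group (n = 3) beside the points. The SYD points (19 to 26 sites) lie below the Model (40 to 54) and Control points (43 to 71) in all 3 panels.

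Over all libraries, 34 of the 114 member sites (29.8%) had a peak in any SYD library, against 48.7% of all sites. In any Model library it was 75 (65.8%, against 69.6% of all sites) and in any Control library 100 (87.7%, against 80.3%). Of the 50 genes 20 had a peak in a SYD library (40%, against 58.5% of all genes), 39 in a Model library and 48 in a Control library. Sites with peaks in both Model and Control libraries and in no SYD library numbered 38 (33.3%, against 17.9% of all sites), and sites with a peak in SYD libraries alone numbered 2 (1.75%, against 4.84%). Those 2 were a site of Kdm6b in the first SYD library and 1 of Phf12 in the second. A site in 1 library only was about as frequent among members (42 sites, 36.8%) as among all sites (33.3%), and 19 of the 42 came from the first Control library, which had the longest list. Members had 2.28 sites per gene, against 1.86 for all genes, and 15 of the 50 genes (30%) had at least 3 sites, against 19.1% of all genes. Their median site length was 276 bases, against 245 for all sites, and the median over sites of the highest score was 45.2, against 53.7.

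The H3K4 methylases held the most sites common to all libraries. Of 9 symbols searched, older names included, 6 had a peak, in 22 sites, of which 6 had a peak in all 9 libraries. These were 2 sites each of Kmt2b, Kmt2d and Setd1b, the enzymes at the core of COMPASS complexes, which methylate H3K4 at promoters and enhancers. The role's sites numbered 7, 9 and 11 in SYD libraries, 14, 13 and 12 in Model libraries and 17, 12 and 13 in Control libraries. As a share of all sites of the library they made up 0.279%, 0.335% and 0.395% in SYD, 0.313%, 0.451% and 0.287% in Model and 0.306%, 0.331% and 0.306% in Control libraries, so that the groups overlapped once the length of the lists was taken into account. Kmt2a, the founding member of the MLL family, had 0, 1 and 1 sites in SYD, 3, 1 and 1 in Model and 4, 1 and 1 in Control libraries. Its site at chr8:49148069-49148506 (rn6) was on 7 lists, with folds of 25.0 and 25.0 in SYD, 15.8, 7.20 and 8.14 in Model and 7.40 and 7.77 in Control libraries. Setd1a, the paralog of Setd1b, had 3 sites between chr1:199232641 and chr1:199236187, none of them on more than 5 lists. Setd7, a monomethylase that also acts on proteins other than histones, had 1 site, on Model and Control lists. Kmt2c, Kmt2e and Prdm9 had no peak.

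The H3K9 methylases had 9 sites, of which 2 had a peak in all 9 libraries. Both belonged to Ehmt2 (G9a), which dimethylates H3K9 in euchromatin, at chr20:4581259-4581414 and chr20:4584884-4585119. Its partner Ehmt1 (GLP) had a single peak, in the second Control library, with a fold of 7.81 and a score of 25.3. Setdb1, which trimethylates H3K9 at silenced repeats, had 3 sites in Model and Control libraries and none in SYD libraries. Of all sites of the series 51.3% had no peak in a SYD library. Prdm2 had 2 sites, 1 of them with a score of 43.6 in the first Model library and 419 in the first Control library. Suv39h1l1, an older name that RefSeq (assembly GRCr8) gives for Suv39h1, the enzyme of constitutive heterochromatin, had 1 peak with a score of 189 in the first Control library.

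The remaining methylases were mostly on Model and Control lists. Ezh2, which trimethylates H3K27 as the catalytic subunit of PRC2, had a site at chr4:77346873-77347011 with folds of 30.4 in 1 SYD library, 12.6 and 12.1 in 2 Model libraries and 8.32, 10.6 and 14.2 in Control libraries. The H3K36 methylases Setd2 and Nsd1 had 3 sites and the H4K20 methylases Kmt5a and Kmt5b had 5, and none of these 8 had a peak in a SYD library, which held for 70.2% of all member sites and for 51.3% of all 9022 sites. Kmt5a, which sets the first methyl group on H4K20, had a site on the first Model list with a fold of 13.6 and a score of 350 that was on no other list. Setd3, Setd4 and Setd5 had 1 site each, with peaks in 2, 1 and 3 libraries and in no SYD library. Setd3 is known as a methylase of a histidine of actin.

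Of the PRDM zinc finger factors Prdm8 was the one found mainly on SYD lists. Its site at chr14:13054771-13056392 had folds of 17.8, 17.0 and 16.4 in the SYD libraries, 8.22 in the third Model library and 5.95 in the second Control library. Relative to the median fold of each list the site stood at 0.576, 0.793 and 0.542 in SYD. In that Model library it stood at 0.749 and in that Control library at 0.665, so it was below the median on every list that held it. It was the only member site with a peak in all 3 SYD libraries outside the 11 sites common to all libraries (0.877% of member sites, against 3.95% of all sites), and it was singled out after its values were seen. Prdm8, a repressor described in the mouse nervous system and testis, was thus on every SYD list and on 1 list each of Model and Control. Prdm15 and Prdm16 had 1 site each and no peak in a SYD library, which held for 51.3% of all sites, and 10 other PRDM symbols had no peak.

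The H3K9 and H3K36 demethylases held fewer sites in SYD libraries than in the others. Of 13 symbols 9 had a peak, in 26 sites, of which 2, 2 and 4 had one in the SYD libraries, 11, 7 and 8 in Model and 10, 9 and 13 in Control libraries. As a share of all sites of the library this was 0.0798%, 0.0743% and 0.144% in SYD, 0.246%, 0.243% and 0.191% in Model and 0.180%, 0.248% and 0.306% in Control libraries, and SYD libraries lay below all others on both measures. The same held for the H4K20 methylases and for the PHD finger genes with Zmynd8. Kdm2b, a CpG-binding H3K36 demethylase of a variant Polycomb complex, had 0 sites in each SYD library, 3, 1 and 1 in Model and 2, 2 and 4 in Control libraries. It was 1 of 30 member genes without a peak in a SYD library, while 58.5% of all genes had one. Its paralog Kdm2a had 1 site, at chr1:219574359-219575068, with folds of 14.2 and 16.9 on 2 SYD lists, 12.4, 7.94 and 13.2 in Model and 10.1, 9.42 and 11.5 in Control libraries. Kdm4b, an H3K9 and H3K36 demethylase, had 1 site in every SYD library, 2, 2 and 3 in Model and 1, 3 and 2 in Control libraries. Phf2, an H3K9 demethylase with a PHD finger, had 6 sites over 12.64 kb, and Kdm3b, which acts on the same lysine, had 5 over 22.82 kb. Each of these 11 sites was on at most 4 lists.

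The demethylases of H3K4 had 5 sites and those of H3K27 had 2, none of them on all 9 lists. Kdm1a (LSD1), which removes H3K4 methyl groups in the CoREST complex, had 1 site with folds of 25.7 and 37.8 in SYD, 13.0 and 11.1 in Model and 8.32 and 12.3 in Control libraries, each on 2 of 3 lists. Kdm5b, an H3K4 demethylase, had 3 sites and no peak in a SYD library, and Kdm5a had 1 peak. Kdm6b, an H3K27 demethylase induced in many stress responses, had a site of 2165 bases at chr10:56005727-56007891. Its folds were 38.9 and 22.9 on 2 SYD lists, 12.4, 9.05 and 13.4 in Model and 16.3, 10.5 and 14.2 in Control libraries. This site was thus on 8 of the 9 lists, all but 1 of SYD. Asxl1, a cofactor of the H2A deubiquitinase Bap1, had 2 sites with no peak in SYD libraries. Jmjd4 and Jmjd6, oxygenases whose substrates are mainly outside histones, had 3 sites with no peak in SYD libraries. Absence from every SYD list, as for these genes and Kdm5b and Asxl1, held for 70.2% of all member sites and for 51.3% of all 9022 sites.

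PHD finger genes and Zmynd8 held 28 sites in 11 genes of 22 symbols searched. These sites numbered 4, 4 and 6 in SYD, 11, 11 and 14 in Model and 20, 9 and 11 in Control libraries. Their shares of all sites of the library were 0.16%, 0.149% and 0.216% in SYD and 0.246%, 0.382% and 0.335% in Model libraries. In Control libraries the shares were 0.36%, 0.248% and 0.259%, so SYD libraries lay below all others here too. Zmynd8, which binds methylated and acetylated histone tails, had the most sites of any member, 8 over 31.97 kb. It had 0, 1 and 2 sites in SYD libraries, 2, 5 and 5 in Model libraries and 3, 4 and 4 in Control libraries. Only the site at chr3:162506117-162506626 was on 8 lists, with folds of 19.7 and 30.4 on 2 SYD lists, 11.9, 6.27 and 10.7 in Model and 8.69, 6.53 and 7.98 in Control libraries. Phf20l1, a Tudor and PHD protein, had a single site of 65 bases, at chr7:108613739-108613803, which had a peak in all 9 libraries. Phf14 had 3 sites in Model and Control libraries, and Phf6, a gene of an X-linked intellectual disability syndrome in humans, had 1 peak in the first Control library. Phf10, a subunit of the PBAF remodeler, likewise had 1 peak there.

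**Figure D2:**
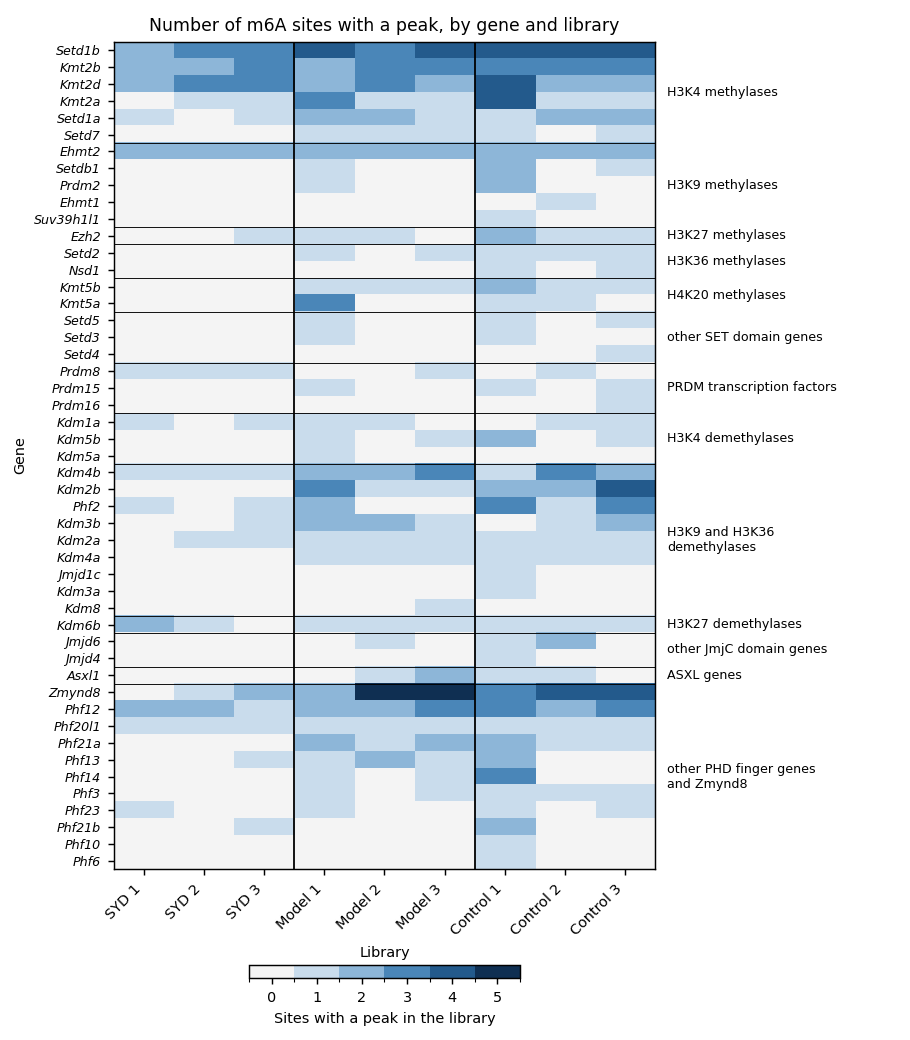
Rows are member genes grouped by role, columns are the 9 libraries, and the shade gives the number of the gene's sites with a peak in that library (0 to 5). Ehmt2 shows 2 sites in every library, Kdm2b shows none in the SYD columns, and Prdm8 shows 1 in each SYD column.

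SYD against Model was compared by the sites that 1 group held in all 3 libraries and the other in none. The members Phf12, Kdm2b, Setd7, Phf21a, Zmynd8, Kdm4a and Phf13 had 1 such site each in all Model and no SYD libraries, which made 7 of the 28 member sites with a peak in at least 3 of the 6 libraries. Over all genes the count was 149 of 3106 sites (4.8%). In the reverse direction 0 member sites had a peak in all SYD and no Model libraries, against 9 of 3106 sites (0.29%) over all genes. Of the 23 member sites held by all Model libraries 30.4% thus had no peak in any SYD library, against 8.2% of all 1816 such sites. With at least 2 libraries against none, 19 of 46 member sites (41.3%, against 16.9% of all sites) were on Model and not on SYD lists, and 0 were on SYD and not on Model lists (against 2.24%). With 3 libraries against 3, Fisher's exact test of 1 site cannot go below a two-sided p of 0.10, so no single site passes a test.

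Phf13, a reader of trimethylated H3K4, had the highest lowest score of these sites. At chr5:169162780-169163614 its folds were 12.1, 11.7 and 15.8 in the Model libraries, with scores of 87.0, 85.3 and 106, and it had no peak on the SYD lists. It was also on the first Control list, with a fold of 8.59. Zmynd8 at chr3:162514102-162514248 had folds of 9.67, 10.3 and 12.0 on the Model lists and 5.02 and 6.59 on 2 Control lists. Phf12, a subunit of a Sin3 deacetylase complex, had folds of 12.8, 7.10 and 11.7 in Model and 8.28, 6.72 and 8.21 in Control libraries at chr10:64834417-64834810. Both sites were thus on every Model list and no SYD list, while another site of each gene had peaks on SYD lists. Phf21a (BHC80), a subunit of the CoREST complex that binds unmethylated H3K4, had folds of 18.4, 7.62 and 11.5 in Model and 11.2, 10.3 and 8.41 in Control libraries at chr3:81256696-81256794. Setd7 had folds of 8.93, 17.6 and 10.5 on the Model lists and 9.04 and 8.97 on 2 Control lists at chr2:140618270-140618405. Neither gene had a peak in a SYD library at any site.

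The 2 demethylases among these sites were Kdm4a, which removes methyl groups from H3K9 and H3K36, and Kdm2b. Kdm4a at chr5:136996387-136996631 had folds of 9.46, 7.59 and 8.40 in Model and 7.64 in the third Control library. Kdm2b at chr12:39142272-39142496 had folds of 9.17, 8.54 and 9.85 on the Model lists and 11.4 and 13.1 on 2 Control lists. Its scores were 22.56, 20.54 and 44.13 on the Model lists and 40.49 and 92.25 on those Control lists. The lowest score on the first SYD list was 20.04, and the peaks of this site in the first and second Model libraries scored little above that. Whether its absence from the SYD lists goes beyond this limit of the lists was not tested. In the Model libraries the 7 sites had folds of 0.731 to 1.82 times the median fold of their list. The lowest Model score of a site was 20.5 to 85.3, with a median of 41.4, against 39.9 for the 11 member sites held by all Model and all SYD libraries. Over all genes these medians were 26.1 and 97.2. Of the 10 member sites held by all Model libraries with a lowest score of 50 or more, 2 (20%) were missing from all SYD lists, against 8 of 951 such sites (0.841%) over all genes. The count of 7 became 3 with only peaks that scored 50 or more, 4 with lists of equal length and 14 without the second Model library, the shortest of the Model lists. Over all genes the same settings gave 114, 35 and 529 sites. The 3 sites at a score of 50 or more were those of Phf13 and Zmynd8 and a Setd1b site outside the 7, at chr12:38851405-38852666. This Setd1b site had peaks on 2 SYD lists, with scores of 42.87 and 21.48, which the limit removed.

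SYD was compared with Control in the same way. The members Kmt5b, Phf12, Kdm2b, Phf21a, Zmynd8, Setd2 and Phf3 had 1 site each with a peak in all Control and no SYD libraries, 7 of 29 member sites, against 277 of 3419 sites (8.1%) over all genes. In the reverse direction 0 member sites had a peak in all SYD and no Control libraries, against 9 of 3419 (0.263%). With lists of equal length 2 did, against 28 sites over all genes. These 2 were the Kdm4b site at chr9:10668715-10668902, on all 9 full lists, and the Prdm8 site, on 1 full Control list. Their Control peaks scored too low to stay on the shortened lists. Of the 23 member sites held by all Control libraries 30.4% had no peak in any SYD library, against 12.6% of all 2197 such sites. By the looser rule of at least 2 libraries against none, 21 of 51 member sites (41.2%, against 22% of all sites) were on Control and not on SYD lists, and 0 were on SYD and not on Control lists (against 1.5%). The comparisons of SYD with Model and with Control share the SYD libraries. The sites of Phf12 and Phf21a were the same as in the comparison with Model and were thus on all Model and all Control lists and on no SYD list.

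Setd2, the enzyme that trimethylates H3K36 behind RNA polymerase II, had folds of 7.15 and 5.68 in 2 Model libraries and 5.78, 6.17 and 5.99 in Control libraries at chr8:118844296-118844958. Kmt5b, which adds further methyl groups to H4K20, had folds of 6.63 and 10.4 in 2 Model libraries and 6.59, 7.50 and 7.53 in Control libraries at chr1:219045986-219048136. Phf3, a protein that binds the tail of RNA polymerase II, had folds of 16.2 and 8.67 in 2 Model libraries and 10.5, 9.94 and 10.1 in Control libraries at chr9:37074493-37077081. These 3 sites were each on all Control lists and on 2 Model lists. The second site of Kdm2b, at chr12:39153361-39153579, had folds of 10.0 in the first Model library and 7.62, 5.81 and 7.44 in Control libraries. That of Zmynd8, at chr3:162508835-162508987, had folds of 8.58 in the second Model library and 4.65, 7.14 and 6.87 in Control libraries. Both genes therefore had 1 such site against each group. The lowest Control score of the 7 sites was 23.5 to 44.9, with a median of 25.5, against 91.0 for the 11 member sites held by all Control and all SYD libraries. Over all genes these medians were 26.5 and 109.5. Of the 9 member sites held by all Control libraries with a lowest score of 50 or more, 0 were missing from all SYD lists, against 2.43% of 1195 such sites over all genes. With only peaks that scored 50 or more or with lists of equal length the count was 0, against 221 and 43 sites over all genes. It was 11 without the first, 13 without the second and 11 without the third Control library, against 402, 673 and 549 sites over all genes.

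**Figure D3:**
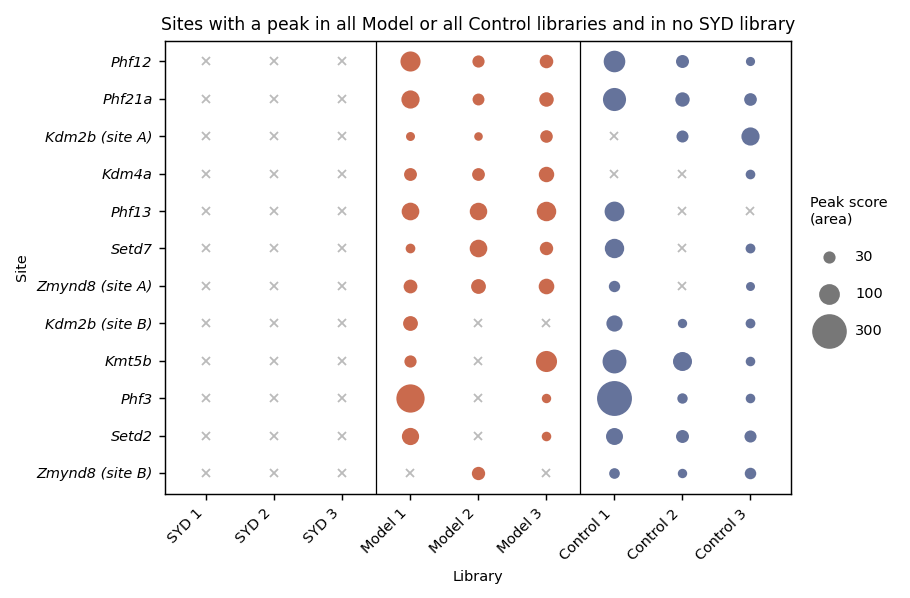
Rows are the 12 member sites with a peak in all Model or all Control libraries and in no SYD library, columns are the libraries. The area of a point is the peak score, and a cross marks a library without a peak; site A of Kdm2b and of Zmynd8 is the one held by all Model libraries and site B the one held by all Control libraries. Phf12 and Phf21a have points in all 6 Model and Control columns, and all 12 rows have crosses in the SYD columns.

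Model against Control showed no such site among the members. Of 49 member sites with a peak in at least 3 of these 6 libraries 0 were in all Model and no Control libraries (over all genes 15 of 4090, 0.367%), and 0 were in all Control and no Model libraries (69 of 4090, 1.69%). With at least 2 libraries against none, 2 of 65 member sites (3.08%, against 7.87% of all 5575 sites with at least 2 peaks here) were on Control and not on Model lists and 0 (against 3.46%) on Model and not on Control lists. The 2 sites were at Kdm2b (chr12:39151055-39151734, folds of 6.59 and 8.33) and Kdm4a (chr5:136995647-136995846, folds of 5.36 and 7.82). Kdm4a thus had 1 of its 2 sites on all Model lists and 1 Control list and the other on 2 Control lists, and both lie within 0.98 kb. With only peaks that scored 50 or more, and with lists of equal length, 1 member site was in all Model and no Control libraries, against 6 and 17 sites over all genes. In both settings it was the Zmynd8 site at chr3:162514102-162514248. Its peaks on 2 Control lists, with scores of 36.06 and 22.44, were left out by both settings.

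Along the genes with several sites, stable and variable sites stood side by side. In Setd1b the sites at chr12:38853805-38854359 and chr12:38863660-38864886 were on all 9 lists, and that at chr12:38851405-38852666 was on all but the first SYD list. A site between them, at chr12:38854964-38855313, was on 2 Model lists and 1 Control list and on no SYD list. In Kdm2b the 5 sites spread over 62.92 kb, and none was on a SYD list. The lowest score of each of these sites was 20.54 to 25.02, and the highest was 22.99 to 92.25. In Zmynd8 the site at chr3:162506117-162506626 was on 8 lists, and the next sites, at chr3:162508835 and chr3:162514102, were on 4 and 5.

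**Figure D4:**
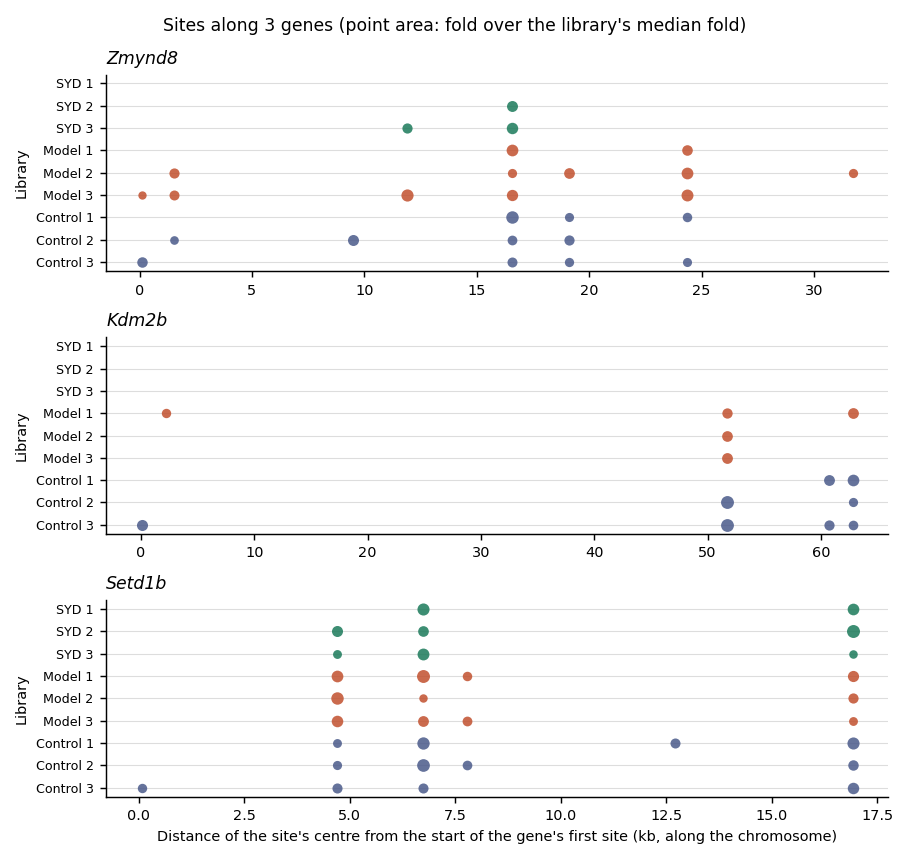
The panels show Zmynd8, Kdm2b and Setd1b. Each point is a site with a peak, placed by its distance in kb from the start of the gene's first site, 1 row per library, with an area that gives the fold over the median fold of the library's list. The Kdm2b panel has no point in the SYD rows, Zmynd8 has 3 there, and 2 Setd1b sites have a point in all 9 rows.

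For the 11 member sites on all 9 lists the size of the enrichment could be compared. They made up 9.65% of the member sites, against 10.2% of all sites, and belonged to Kmt2b, Kmt2d, Setd1b, Ehmt2, Kdm4b, Phf12 and Phf20l1. Each library was centred on its median log2 fold over the 917 sites held by all libraries, since these medians differed as whole libraries, at 5.28, 4.74 and 5.34 in SYD, 4.15, 3.67 and 4.11 in Model and 3.64, 3.70 and 4.02 in Control libraries. On that scale no site passed the test between any 2 groups. By limma with Benjamini-Hochberg adjustment 0 of the 11 and 0 of the 917 sites (0%) were called in each of the comparisons of SYD with Model, SYD with Control and Model with Control. At an unadjusted p under 0.05 it was 0 of the 11 in each comparison, and 67, 78 and 22 of the 917.

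In SYD against Model the centred log2 difference of the 11 sites had a median of 0.06, against 0.01 for all 917, with 9 sites above 0 and 2 below. The largest was that of Setd1b at chr12:38853805-38854359, with folds of 34.6, 18.7 and 32.7 in SYD, 14.4, 5.30 and 9.85 in Model and 8.50, 11.1 and 8.09 in Control libraries. Relative to the library it averaged -0.33 ± 0.17 in SYD and -0.79 ± 0.48 in Model (SD, n = 3 each), a difference of 0.46 (SE 0.28, 95% interval -0.14 to 1.06, adjusted p = 0.769 by limma). Over the fits that leave out 1 library it was 0.22 to 0.69, the lowest without the second Model library and the highest without the first. The lowest was that of Ehmt2 at chr20:4581259-4581414, with folds of 46.6, 28.9 and 29.4 in SYD, 20.9, 10.7 and 19.1 in Model and 17.4, 9.69 and 16.8 in Control libraries. Its difference was -0.07 (SE 0.28, 95% interval -0.68 to 0.53, adjusted p = 0.950 by limma). The interval of Ehmt2 reached both sides of 0, and its sign changed without the third SYD library (0.14) and without the first Model library (0.00).

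In SYD against Control the median difference was 0.18, against 0.02 for all 917 sites, with 9 sites above 0 and 2 below. Kdm4b at chr9:10668715-10668902 had folds of 34.9, 25.0 and 35.2 in SYD, 14.0, 7.85 and 24.1 in Model and 8.06, 7.40 and 11.0 in Control libraries. Its centred level was -0.15 ± 0.06 in SYD, -0.19 ± 0.60 in Model and -0.67 ± 0.13 in Control libraries (SD, n = 3 each). All 3 SYD values lay above all 3 Control values, by 0.52 on average (SE 0.28, 95% interval -0.08 to 1.11, adjusted p = 0.637 by limma), which did not pass. Kmt2d at chr7:140519404-140522286 was the lowest, with folds of 21.4, 12.9 and 25.2 in SYD, 10.2, 7.88 and 8.40 in Model and 8.55, 7.90 and 12.2 in Control libraries. Its difference was -0.31 (SE 0.22, 95% interval -0.79 to 0.17, adjusted p = 0.725 by limma).

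In Model against Control the median difference was 0.01, against -0.001 for all 917 sites, with 7 sites above 0 and 4 below. The same 2 sites gave the extremes, Kdm4b with 0.48 (SE 0.28, 95% interval -0.11 to 1.08) and Kmt2d with -0.29 (SE 0.22, 95% interval -0.76 to 0.19), both at an adjusted p of 0.997 by limma. Without the third Model library the difference of Kdm4b was 0.14. On the deposited folds, without centring, all 11 sites were higher in SYD than in Model and than in Control and passed the test, as did 826 and 880 of all 917 sites, with median log2 differences of 1.15 and 1.35 over all of them. The 11 member sites had medians of 1.21 and 1.51 there.

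Among the 11 sites on all 9 lists, the highest scores in the weakest library were those of Phf12 (chr10:64861669-64862288, lowest score 63.6), Ehmt2 (chr20:4581259-4581414, 61.3), Kmt2b (chr1:89041813-89042145, 46.5) and Kmt2d (chr7:140546535-140546908, 45.8, and chr7:140519404-140522286, 34.6). Kmt2b at this site had folds of 68.9, 33.1 and 84.7 in SYD, 23.7, 19.7 and 29.6 in Model and 14.4, 19.8 and 22.2 in Control libraries, in each library higher than 84.3% or more of the peaks on its list. Phf12 had folds of 52.6, 27.9 and 45.4 in SYD, 19.7, 17.0 and 16.4 in Model and 8.11, 15.2 and 13.9 in Control libraries. The Kmt2d site at chr7:140519404 ranked lower on the lists, with a median of 31.7% of the peaks below it.

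In the 4 genes with 2 such sites the order of the sites was fixed in some and not in others. In Kmt2b the site at chr1:89041813-89042145 had the higher fold in 9 of 9 libraries, by 1.07 to 1.86 times (median 1.38) over that at chr1:89038495-89040509, 1303 bases away. In Kmt2d the site at chr7:140546535-140546908 was higher in 9 of 9 libraries, by 1.11 to 2.66 times (median 1.41). In Ehmt2 and in Setd1b the site with the higher coordinate was higher in 3 of 9 libraries each, so that no order held across the libraries.

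**Figure D5:**
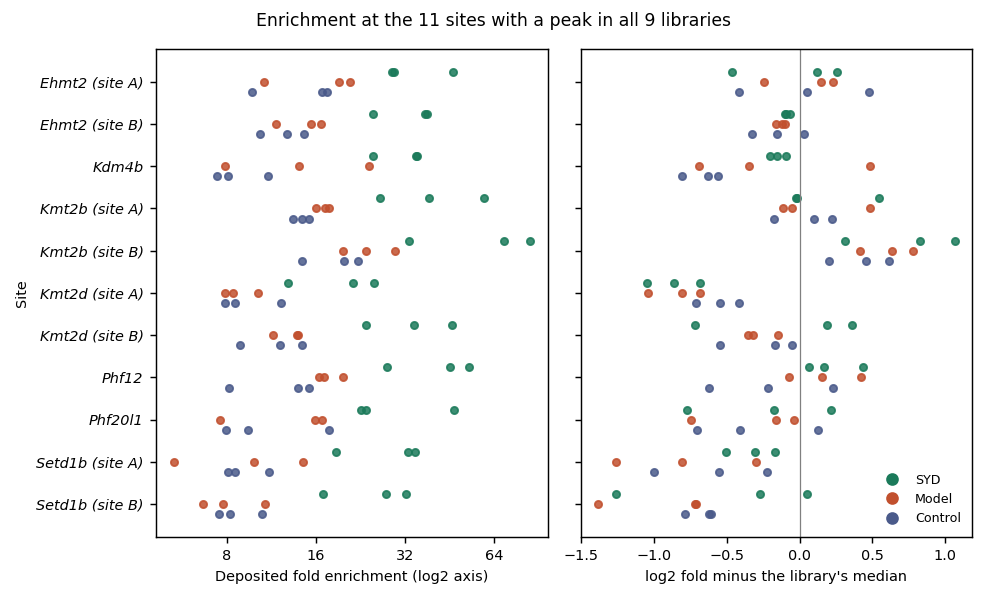
Points are libraries, coloured by group, for the 11 sites with a peak in all 9. The left panel gives the deposited fold on a log2 axis, on which SYD points lie to the right. The right panel gives the log2 fold minus the median of the library over 917 sites, on which SYD, Model and Control points of most sites overlap; site A is the one with the lower coordinate. Kdm4b has its 3 SYD points to the right of its 3 Control points on the right panel.

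Partner genes of these enzymes were counted from a list of 100 symbols of COMPASS, PRC1, PRC2 and BAP1 complexes, other methylases and readers. Of these 52 had a peak, with 19, 21 and 25 genes in SYD libraries, 36, 25 and 37 in Model libraries and 42, 27 and 31 in Control libraries. The largest SYD value and the smallest Model value were thus both 25. Of their 89 sites 10 were on all 9 lists, 3 of them in Paxip1, which recruits Kmt2d complexes, and 1 each in Eed and Rbbp7 of PRC2, Pcgf6 of PRC1, Brpf1, Brpf3, Mphosph8 and Dido1. Eed, at chr1:154215804-154216340, had folds of 38.5, 31.2 and 52.5 in SYD, 14.2, 14.5 and 11.1 in Model and 8.72, 24.8 and 18.8 in Control libraries. Foxk2, a forkhead factor bound to BAP1, had the 1 partner site in all Model and no SYD libraries, of 37 (2.70%, against 4.8% of all sites). In all Control and no SYD libraries there were 3 of 37 (8.11%, against 8.1%), among them sites of Foxk2 and of Jarid2 of PRC2. Hcfc1 had the 1 in all Control and no Model libraries, of 49 (2.04%, against 1.69%). With so few sites, the shares of the partners were near those of all sites.

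The annotation deposited with the peaks tied the members to few pathways. The pathway of lysine degradation, which holds the lysine methylases, was given for 11 of the 50 members and for 22 of all 4846 genes, and any pathway for 13 of the 50 (26%, against 33.6% of all genes). Zinc ion binding was given for 24 members (48%, against 7.49%). Methyltransferase activity was given for 16 (32%, against 1.22%) and demethylase activity for 8 (16%, against 0.248%). Members were chosen by symbols that name such functions, so these high shares follow from the choice and are not a result. The members lay on 18 chromosomes, with 14 of the 114 sites on chromosome 12, where Setd1b, Kdm2b and Kmt5a lie.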

How the data were processed

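Each deposited list holds the mRNA peaks of 1 replicate. Reads had been trimmed by the authors (cutadapt 1.9.3) and mapped to the rn6 build (HISAT2 2.0.4), and MACS 1.4.2 had called the peaks of each replicate. The deposited score is the authors' MACS score, and the deposited fold enrichment is their ratio of immunoprecipitate over input. The deposited FDR column reads 100 percent throughout and was not used. Depth is unknown, and counting errors could not be computed.

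Peaks sharing 1 base or more were merged (0 sites held more than 1 gene). Presence was compared as 3 of 3 against 0 of 3 libraries. Enrichment was tested with limma 3.58.1 (R 4.3.3) on log2 folds of the 917 sites on all lists, median-centred per library, in 1 fit over the 3 groups, with Benjamini-Hochberg adjustment over 917 sites and a threshold of 0.05. The fit was tested on simulated data, and the size of change that it can detect is not given here. Other steps used Python 3.11.15 (pandas 2.3.3, numpy 2.4.6, matplotlib 3.10.9, scipy 1.17.1). Replicate numbers were not used to pair the libraries in the main fit (r of the deviations of same-numbered libraries -0.047 to 0.259 over 9 pairs).

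The sites named are, by rule, the members separated between groups or called by limma, in each role the site on all lists with the highest lowest score, the 5 with the highest lowest score among members on all lists, and partners on all lists or separated. Some items are not reported here by name, though the counts include them. Other named genes and sites illustrate their role and were chosen after their values were seen. Members and lists were chosen with earlier results of these data known. Suv39h1l1 was added to the H3K9 methylases after the lists were read. Of 50 symbols 47 matched RefSeq (GRCr8) by gene ID, 1 by symbol and 1 by an older symbol. The gene ID deposited for Setd1b is that of Setd1a in RefSeq, which places Setd1b on the deposited chromosome, 12, so the deposited symbol was kept. Whether a site is in a UTR, an exon or an intron, and the sequences of the sites, were not analysed here. The alternatives are those of the closing section.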

Additional observations from a re-analysis of the deposited data

How the results depend on the processing

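The lists limit every comparison: a site without a peak has no value, and 3 libraries a group let no single site pass a test of presence. With only peaks that scored 50 or more, 3 member sites were held by all Model and no SYD libraries (114 over all genes). They included the Setd1b site at chr12:38851405-38852666, whose SYD peaks scored less than 50. At that score 0 member sites were held by all Control and no SYD libraries (221 over all genes) and 1 by all Model and no Control libraries (6 over all genes). That 1 was a Zmynd8 site with lower-scoring peaks on 2 Control lists. The mean number of member genes with a peak was then 7.67 in SYD, 17.3 in Model and 18.3 in Control libraries. With lists of equal length the counts of sites, in the same order, were 4, 0 and 1 (35, 43 and 17 over all genes), the 1 being the same Zmynd8 site. Member sites in all SYD and no Control libraries then numbered 2 (28 over all genes). These were sites of Kdm4b and Prdm8 whose Control peaks were cut with the shortened lists. The mean numbers of member genes at equal length were 13.3 in SYD, 21.3 in Model and 18.3 in Control libraries. With at least 2 libraries against none the counts were 19 of 46 for Model over SYD (41.3%, against 16.9% of all sites), 21 of 51 for Control over SYD (41.2%, against 22%) and 2 of 65 for Control over Model (3.08%, against 7.87%). For 1 library left out, the range of the member counts is given with that over all genes in brackets. All Model and no SYD gave 7 to 14 (206 to 529), and all Control and no SYD gave 7 to 13 (365 to 673). All SYD and no Model gave 0 to 1 (22 to 51), and all SYD and no Control gave 0 to 1 (17 to 35). All Model and no Control gave 0 to 1 (28 to 121), and all Control and no Model gave 0 to 1 (102 to 219). No shares were taken with 1 library left out, with the score limit or with lists of equal length. Genes in place of sites, an overlap of at least 50% and a digit after every prefix moved no count by over 1.5 times.

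Without centring, limma called 11 of the 11 member sites in SYD against Model and 11 in SYD against Control, and the differences of Ehmt2 (1.07) and Kmt2d (1.03) changed sign. The difference of Ehmt2 ranged from -0.23 to 0.14 over the fits without 1 library. With the replicate block limma called 0 member sites in all 3 comparisons, as it did in every other alternative. Of the 9 libraries 1 correlated best with a library of its own number. The highest r of a same-numbered pair was 0.259, between the first Model and the first Control library. Whether same-numbered libraries shared a step of handling was not tested.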
